A study of Arabidopsis thaliana with 16 samples.

Results

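LRX8 (AT3G19020), LRX9 (AT1G49490), LRX10 (AT2G15880) and LRX11 (AT4G33970) encode the leucine-rich repeat extensins of Arabidopsis thaliana pollen, and they were taken by locus as 4 of the 33323 genes counted. RNA came from semi-in vivo pollen tubes, which grow out of the cut end of a pollinated pistil. The plants were paps1-1 mutants, which carry a mutant allele of PAPS1 (AT1G17980), the gene of a nuclear poly(A) polymerase, or wild type, and both genotypes were in the Col-0 background. Each of 8 RNA samples, 4 of paps1-1 and 4 of wild type, was divided into a library primed with oligo(dT), which anneals to poly(A) tails, and a library primed with random hexamers, which anneal along the whole RNA, so that there were 16 libraries in 4 groups of 4. Ribosomal RNA was depleted in both kinds of library. The labels give no plant age, no temperature and no origin of the replicates, so the p-values reflect variation among these RNA samples alone, some or all of which may be technical.

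Leucine-rich repeat extensins are cell wall proteins with an N-terminal leucine-rich repeat domain and a C-terminal extensin domain, which carries runs of serine followed by prolines that are hydroxylated and glycosylated and anchor the protein in the wall. In Arabidopsis pollen tubes the leucine-rich repeat part binds the secreted peptides RALF4 and RALF19, which also act through receptor kinases at the cell surface, and loss of several pollen members together impairs tube growth and tube integrity. The other members of the family act mainly in roots and shoots.

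By the RefSeq annotation of TAIR10.1 the 4 genes lie on chromosomes 3 (LRX8), 1 (LRX9), 2 (LRX10) and 4 (LRX11). Their annotated exons sum to 3414 bases in LRX8, 2952 in LRX9, 2709 in LRX10 and 3108 in LRX11. The encoded proteins have 956 residues in LRX8, 852 in LRX9, 727 in LRX10 and 699 in LRX11. A serine followed by at least 3 prolines occurs 25 times in LRX8, 15 times in LRX9, 27 times in LRX10 and 18 times in LRX11. Ahead of the first of these repeats, LRX10 and LRX11 were identical at 80.5% of aligned residues and LRX8 and LRX9 at 74.7%, while the other 4 pairs lay between 62.1% and 67.1%, so the family forms an LRX8 and LRX9 pair and an LRX10 and LRX11 pair in this domain. The pairing did not hold from the first repeat on. There LRX8 and LRX9 were identical at 62.85% of aligned residues and LRX10 and LRX11 at 75.6%. LRX8 was identical to LRX10 at 75.5% and to LRX11 at 76.4%. Stretches of the coding sequence show both domains. In the leucine-rich repeat part, 90 aligned bases are printed 5′ to 3′ with the 62 bases that all 4 genes share in capitals.
LRX8: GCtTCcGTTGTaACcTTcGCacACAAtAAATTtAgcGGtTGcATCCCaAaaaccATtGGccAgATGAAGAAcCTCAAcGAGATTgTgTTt
LRX9: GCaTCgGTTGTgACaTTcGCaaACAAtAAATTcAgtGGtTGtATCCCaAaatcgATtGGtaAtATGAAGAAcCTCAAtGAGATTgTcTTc
LRX10: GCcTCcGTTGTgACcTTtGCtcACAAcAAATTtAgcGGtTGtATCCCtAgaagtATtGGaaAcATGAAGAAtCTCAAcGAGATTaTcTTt
LRX11: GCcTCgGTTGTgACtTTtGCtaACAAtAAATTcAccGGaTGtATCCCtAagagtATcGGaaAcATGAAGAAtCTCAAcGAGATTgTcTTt
In the extensin part, 90 bases of each gene are printed 5′ to 3′ with the codons of a serine and at least 4 following prolines in capitals, 4 such motifs in each stretch.
LRX8: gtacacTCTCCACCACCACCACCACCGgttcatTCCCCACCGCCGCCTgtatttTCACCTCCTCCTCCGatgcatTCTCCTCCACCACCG
LRX9: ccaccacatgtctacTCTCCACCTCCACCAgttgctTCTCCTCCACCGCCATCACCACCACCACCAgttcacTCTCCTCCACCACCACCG
LRX10: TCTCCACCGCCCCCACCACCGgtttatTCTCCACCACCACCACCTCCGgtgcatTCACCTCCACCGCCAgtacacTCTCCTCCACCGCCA
LRX11: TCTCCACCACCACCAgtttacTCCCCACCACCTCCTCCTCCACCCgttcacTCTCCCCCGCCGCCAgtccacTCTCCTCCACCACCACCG
The stretches are shown because likeness between the 4 genes bears on whether a read can be assigned to 1 of them. No run of 50 exon bases of any member occurred at another locus of the genome, and 2.73% of such runs in LRX8 occurred more than once within LRX8 itself.

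The libraries held between 70006 and 5294715 gene counts, and rows that name no gene took between 55.1% and 99.6% of a library's reads. The shallowest library was wild-type oligo(dT) replicate 3, in which the limit set by 3 counts is 42.9 CPM, that is, counts scaled to 1e6 gene counts. These limits and the intervals on shares take in counting error alone, because no molecular identifiers were used. The summed share of 8 pollen markers lay between 1.19% and 3.14% in paps1-1 hexamer libraries and between 2.18% and 3.24% in wild-type hexamer libraries. In the same libraries the share of 9 photosynthesis genes was at most 0.423% in paps1-1 and 0.133% in wild type. The share of 10 pistil markers was at most 0.0426% in paps1-1 and 0.0112% in wild type, and that of 4 sperm markers at most 0.00577% in paps1-1 and 0.00448% in wild type. Of the defining markers, AT4G26880 and CRC (AT1G69180) of the pistil and GEX2 (AT5G49150) of sperm were at 0 in all 16 libraries. PAPS1 itself had a mean of 127 CPM (SD 67.5, n = 4) in paps1-1 hexamer libraries and of 146 CPM (SD 49.4, n = 4) in wild-type ones, and since paps1-1 is an allele and not a deletion its count does not check the labels.

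All 4 genes were among the most abundant RNAs of the hexamer libraries, and LRX8 led the family throughout. LRX8 had 24014, 9788, 8933 and 22691 CPM in paps1-1 replicates 1 to 4, against 20553, 23919, 7575 and 12315 CPM in the wild-type replicates. LRX9 had 17782, 6462, 6235 and 15049 CPM in paps1-1, against 14805, 17555, 5312 and 8183 CPM in wild type. For both genes the genotypes overlapped across nearly their whole range, with paps1-1 replicates 2 and 3 and wild-type replicate 3 at the low end.

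LRX10 had 6850, 2991, 2867 and 6541 CPM in paps1-1 hexamer libraries, against 10005, 12221, 3617 and 4537 CPM in wild type. Its 2 lowest libraries were paps1-1 replicates 2 and 3, and the genotypes overlapped. LRX11 had 3498, 1552, 1316 and 3863 CPM in paps1-1, against 7785, 8500, 4482 and 4134 CPM in wild type. Every paps1-1 library lay below every wild-type library for LRX11, a separation in this direction shown by 1.52% of the 12595 genes tested.

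**Figure D1:**
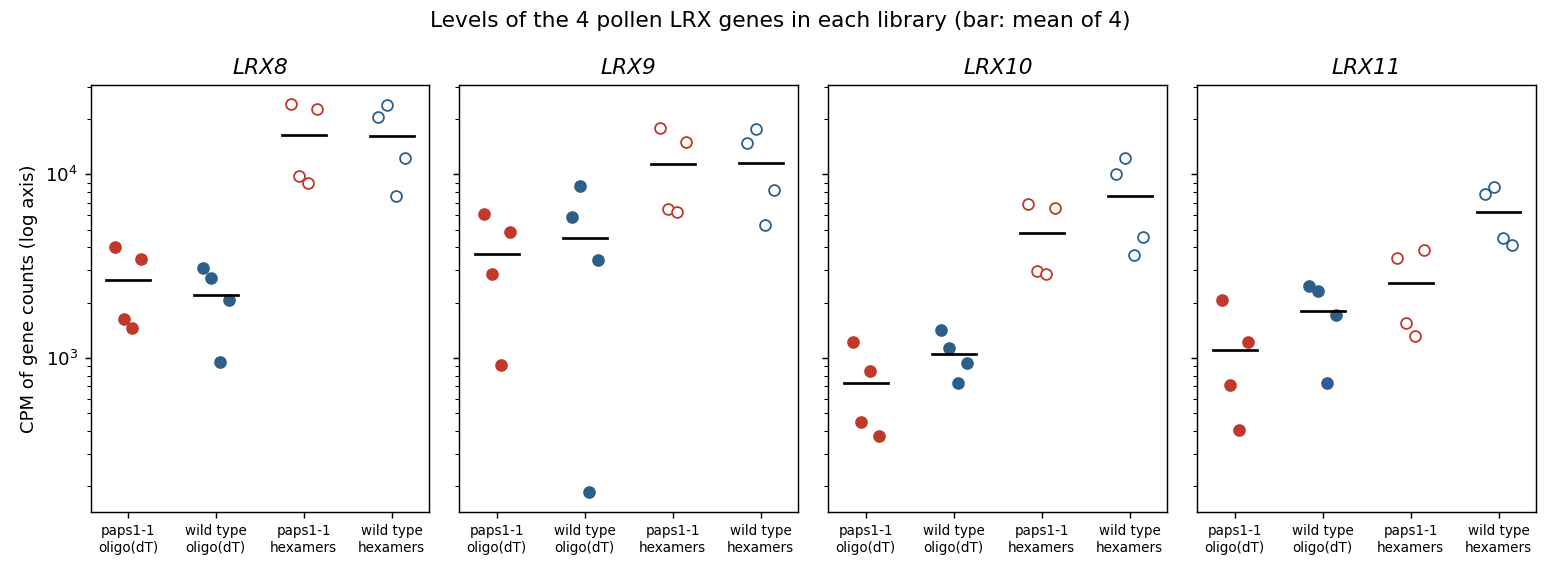
CPM of gene counts (log axis) of LRX8, LRX9, LRX10 and LRX11 in each of the 16 libraries, grouped by genotype and priming (red paps1-1, blue wild type, filled oligo(dT), open random hexamers), with a bar at the mean of 4. LRX8 reached 24014 CPM in a paps1-1 hexamer library, and only for LRX11 among hexamer libraries do all paps1-1 points lie below all wild-type points.

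The 4 genes together took 5.21%, 2.08%, 1.94% and 4.81% of all gene counts in paps1-1 hexamer replicates 1 to 4, against 5.31%, 6.22%, 2.1% and 2.92% in wild type. The mean share was 3.51% ± 1.74 in paps1-1 and 4.14% ± 1.95 in wild type (SD, n = 4 each), so the difference between genotypes was smaller than the spread within either. The low shares of paps1-1 replicates 2 and 3 stood beside low pollen marker shares, 1.38% and 1.19%, against 3.14% and 2.71% in paps1-1 replicates 1 and 4. Wild-type replicate 3 had a low share of the LRX genes with a pollen marker share of 3.20%, within the range of the other wild-type libraries. In RNA from whole tubes, fewer cells of a type and less RNA per cell cannot be told apart, and the part that pollen content plays in the LRX levels was not tested.

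Scaled by exon length, the order of levels in hexamer libraries was LRX8, LRX9, LRX10 and LRX11. LRX8 averaged 7961 ± 3785 TPM (counts per kilobase of annotated exon scaled to 1e6 in each library) in paps1-1 and 8117 ± 3997 TPM in wild type (SD, n = 4 each). LRX9 averaged 6407 ± 3216 TPM in paps1-1 and 6691 ± 3503 TPM in wild type. LRX10 averaged 2954 ± 1276 TPM in paps1-1 and 4833 ± 2798 TPM in wild type. LRX11 averaged 1366 ± 669 TPM in paps1-1 and 3433 ± 1324 TPM in wild type. Among the 32827 genes with an annotated length, LRX8 ranked between 7 and 13 by TPM in the paps1-1 hexamer libraries and between 6 and 32 in the wild-type ones. LRX11, the lowest of the family, ranked between 70 and 116 in paps1-1 and between 28 and 55 in wild type. The separation of genotypes seen for LRX11 was shared by 1 of the 8 pollen markers. CALS5 (AT2G13680) lay at 107 to 327 TPM in paps1-1 hexamer libraries and at 369 to 397 TPM in wild-type ones, while the other markers overlapped.

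The order held within libraries. In 8 of 8 hexamer libraries LRX8 exceeded LRX9 per kilobase, by 0.31 ± 0.07 on the log2 scale (SD over 8 RNA samples). LRX9 exceeded LRX10 by 0.79 ± 0.34 in 8 of 8 libraries, and LRX10 exceeded LRX11 by 0.76 ± 0.49 in 7 of 8, with wild-type replicate 3 the exception. Each of the 6 pairs passed an exact two-sided sign-flip permutation test adjusted over the 6 pairs, with an adjusted p of 0.00938 for 5 pairs and 0.0156 for LRX10 and LRX11. Neighbours LRX10 and LRX11 no longer passed without paps1-1 replicates 2 and 3 (adjusted p = 0.0625 by the same exact test, 0.60 on the log2 scale). The smallest p that 8 samples allow is 0.00781.

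LRX8 and LRX9 kept a near-fixed proportion in every hexamer library. The LRX9 count was 74.1%, 66.0%, 69.8% and 66.3% of the LRX8 count in paps1-1 replicates 1 to 4, and 72.0%, 73.4%, 70.1% and 66.4% in wild type. The mean log2 ratio of LRX9 to LRX8 differed between genotypes by -0.03, against SDs of 0.08 in paps1-1 and 0.06 in wild type. Over the 8 hexamer libraries the log2 CPM values of LRX8 and LRX9 had a Pearson correlation of 0.999, against 0.931 for LRX10 and LRX11 and 0.809 for LRX8 and LRX11. The values behind these correlations were scaled by edgeR's TMM factors, which ran from 0.60 to 1.47. Genes of a library share its factor and its pollen content, so the correlations are given as a description.

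Within the family, the counts of LRX10 and LRX11 relative to LRX8 were lower in every paps1-1 hexamer library than in every wild-type one, a separation at the limit of what the exact test can resolve with 4 libraries against 4. The LRX10 count was 28.5%, 30.6%, 32.1% and 28.8% of the LRX8 count in paps1-1 hexamer libraries, against 48.7%, 51.1%, 47.8% and 36.8% in wild type. The LRX11 count was 14.6%, 15.9%, 14.7% and 17.0% of the LRX8 count in paps1-1, against 37.9%, 35.5%, 59.2% and 33.6% in wild type. For LRX11 the nearest libraries of the genotypes were paps1-1 replicate 4, at 17.0%, and wild-type replicate 4, at 33.6%.

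On the log2 scale the ratio to LRX8 differed by -0.61 for LRX10 (0.66-fold) and by -1.38 for LRX11 (0.38-fold), paps1-1 minus wild type. The exact two-sided permutation test gave p = 0.0286 for each, the smallest p that 4 libraries against 4 allow, and an adjusted p of 0.0571 over the 6 ratios examined, which does not pass 0.05. These ratios were examined after the counts had been seen. Of 12594 genes, 1.12% had a ratio to LRX8 that was lower in every paps1-1 hexamer library than in every wild-type one. In hexamer libraries LRX11 also stood lower against LRX10, its closest relative ahead of the repeats. Its count was 45.9% to 59.1% of the LRX10 count in paps1-1, against 69.6% to 124% in wild type. With oligo(dT) this ratio overlapped between genotypes, at 47.5% to 322% in paps1-1 and 100% to 204% in wild type. The ratio follows from the LRX10 and LRX11 counts given above and was not tested. The share of all genes that separate in their ratio to LRX10 was not counted.

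As shares of the counts of the 4 genes, LRX11 held 6.71%, 7.46%, 6.80% and 8.02% in paps1-1 hexamer libraries and 14.6%, 13.7%, 21.4% and 14.2% in wild type. The widest 95% Wilson interval among these 8 shares ran from 20.7% to 22.1%, in wild-type replicate 3. LRX8 held 46.6% ± 0.578 in paps1-1 and 38.9% ± 2.53 in wild type (SD, n = 4 each), and LRX9 held 32.2% ± 1.39 in paps1-1 and 27.4% ± 1.37 in wild type. LRX10 held 14.0% ± 0.759 in paps1-1 and 17.8% ± 1.81 in wild type. These shares are parts of the same sum, so a lower share of some members raises that of the others. The mean level of LRX8 was 16356 CPM in paps1-1 hexamer libraries and 16091 CPM in wild-type ones.

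The separation of LRX11 was also present in the oligo(dT) libraries of the same RNA samples, which are not an independent set of tubes. There the LRX11 count was 51.5%, 43.8%, 27.8% and 35.3% of the LRX8 count in paps1-1, against 80.1%, 84.8%, 76.3% and 82.2% in wild type. The log2 difference was -1.07, with p = 0.0286 by the exact permutation test and an adjusted p of 0.0571, and 1.76% of 5100 genes separated in this way. LRX10 overlapped between genotypes in oligo(dT) libraries, at 11% to 58.5% of LRX8 in paps1-1 and 41.6% to 76.3% in wild type. The wild-type replicate 3 value of LRX11 rests on 51 counts against 67 of LRX8.

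**Figure D2:**
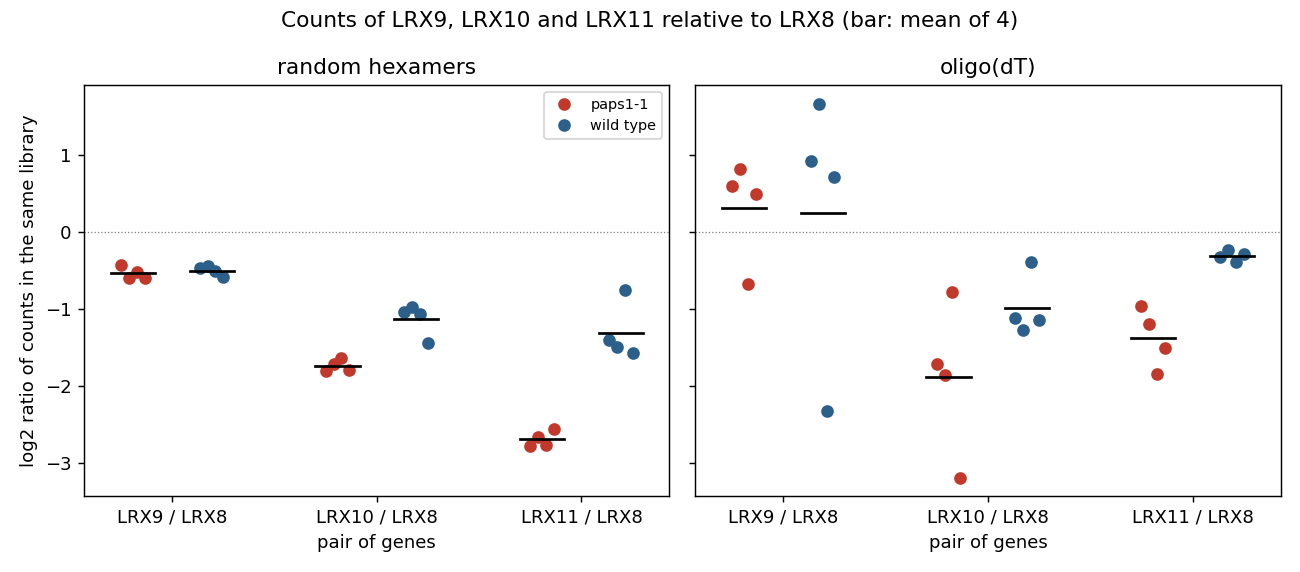
Log2 ratio of the LRX9, LRX10 and LRX11 counts to the LRX8 count of the same library, by priming (panels) and genotype (red paps1-1, blue wild type), with a bar at the mean of 4 libraries. With random hexamers LRX9 sits near the same ratio in both genotypes, while the LRX10 and LRX11 points of paps1-1 lie below those of wild type, with mean differences of -0.61 and -1.38.

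Tested across all genes, none of the 4 levels differed between genotypes past the threshold (edgeR quasi-likelihood F test, Benjamini-Hochberg adjusted p under 0.05, 8 libraries of 1 priming method). With random hexamers the log2 fold change of paps1-1 over wild type was -0.04 ± 1.05 for LRX8, -0.06 ± 1.00 for LRX9, -0.75 ± 0.91 for LRX10 and -1.34 ± 0.87 for LRX11 (± SE), each with an edgeR adjusted p of 1.00. The signs of LRX8 and LRX9 turned with DESeq2 size factors, to 0.05 for LRX8 and 0.02 for LRX9. Without paps1-1 replicates 2 and 3, the libraries of low pollen marker share, LRX10 stood at -0.10 and LRX11 at -0.66, and leaving out 1 replicate at a time gave -1.16 to -0.29 for LRX10 and -1.70 to -0.90 for LRX11. The 95% interval of LRX11 ran from -3.04 to 0.36. In this comparison 0.0715% of 12595 genes were called, that is 9 genes, and the median log2 fold change of all genes was 0.38, or 0.53 with DESeq2 size factors. Relative to that median the 4 members stood at -0.41 (LRX8), -0.44 (LRX9), -1.13 (LRX10) and -1.72 (LRX11).

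With oligo(dT) none of the members was called either, beside 0.0196% of 5101 genes, a single gene. LRX8 had 4024, 1632, 1461 and 3454 CPM in paps1-1 replicates 1 to 4, against 3077, 2720, 957 and 2074 CPM in the wild-type replicates. LRX9 had 6075, 2870, 916 and 4868 CPM in paps1-1, against 5833, 8637, 186 and 3408 CPM in wild type. Both genes had their lowest value in wild-type replicate 3. LRX10 had 1229, 450, 854 and 378 CPM in paps1-1, against 1418, 1130, 729 and 936 CPM in wild type. LRX11 had 2070, 715, 405 and 1219 CPM in paps1-1, against 2465, 2307, 729 and 1706 CPM in wild type, with its lowest value in paps1-1 replicate 3. The log2 fold changes lay between -0.47 for LRX11 and 0.42 for LRX8, each with an SE of at least 0.86, and the genotypes overlapped for all 4 genes.

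In wild-type oligo(dT) replicate 3, LRX9 had 13 counts, or 186 CPM, while the other wild-type oligo(dT) libraries had between 3408 and 8637 CPM. That library held 67 counts of LRX8, 51 of LRX10 and 51 of LRX11.

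The same RNA gave a lower fraction of LRX reads when primed with oligo(dT). Within each RNA sample the CPM of LRX8 was lower in the oligo(dT) library than in the hexamer library by between 5.94-fold and 8.79-fold, in 8 of 8 samples. The log2 ratio of oligo(dT) to hexamer CPM for LRX8 was -2.58, -2.58, -2.61 and -2.72 in paps1-1 replicates 1 to 4 and -2.74, -3.14, -2.98 and -2.57 in wild type, the tightest of the 4 members. For LRX10 the log2 ratio averaged -2.77 ± 0.99 in paps1-1 and -2.71 ± 0.54 in wild type (SD, n = 4 each).

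The mean log2 ratio of LRX11 was -1.31 ± 0.45 in paps1-1 and -1.86 ± 0.57 in wild type. LRX9 averaged -1.78 ± 0.69 in paps1-1 and -2.12 ± 1.82 in wild type, where replicate 3, at -4.84, stood apart from the other 3 libraries at -1.34 to -1.02. All 4 genes were lower in 8 of 8 RNA samples (exact two-sided sign-flip permutation test, p = 0.00781 each, the same after adjustment over the 4 genes). Most genes went the same way in the model described below. Of 14190 genes, 11746 had a negative log2 fold change in paps1-1 and 11788 in wild type. The share of all genes lower in 8 of 8 samples was not counted.

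**Figure D3:**
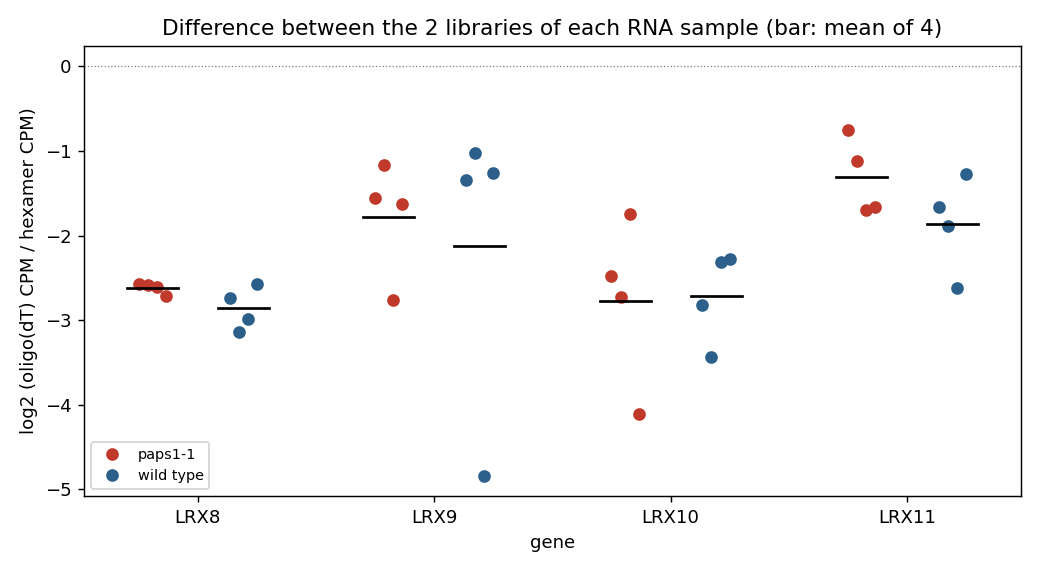
Log2 ratio of CPM in the oligo(dT) library to CPM in the hexamer library of the same RNA sample for each of the 4 genes (red paps1-1, blue wild type; bar: mean of 4). All 32 points lie below 0, LRX8 is the most tightly grouped, and the lowest point, at -4.84, is LRX9 in wild-type replicate 3.

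The model over all 16 libraries, blocked by RNA sample, called 3 of the 4 genes lower with oligo(dT) in paps1-1 and all 4 in wild type, beside 0.254% of 14190 genes called lower in paps1-1 and 1.11% in wild type. In paps1-1 the log2 fold change of oligo(dT) over hexamers was -3.26 ± 0.52 for LRX8 (edgeR adjusted p = 7.32e-07), -2.41 ± 0.55 for LRX9 (adjusted p = 0.00824) and -3.34 ± 0.68 for LRX10 (adjusted p = 9.32e-04). LRX11, at -1.95 ± 0.69, was not called there (edgeR adjusted p = 0.304). In wild type the values were -3.86 ± 0.53 for LRX8 (edgeR adjusted p = 1.28e-09), -2.78 ± 0.57 for LRX9 (9.73e-04), -3.72 ± 0.67 for LRX10 (3.85e-05) and -2.83 ± 0.70 for LRX11 (0.0137). Of the 8 pollen markers, 3 were also called lower in wild type, CSLD1 (AT2G33100) at -5.88 ± 1.67, CSLD4 (AT4G38190) at -4.37 ± 1.20 and CALS5 at -3.88 ± 1.11. VGD1 (AT2G47040) was called higher there, at 1.38 ± 0.38. In paps1-1 0 of the 8 markers were called.

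Without paps1-1 replicates 2 and 3, which leaves 2 paps1-1 RNA samples, none of the members was called in paps1-1, where the log2 fold changes were -3.25 for LRX8, -2.19 for LRX9, -3.89 for LRX10 and -1.81 for LRX11, and 2 were called in wild type. Without paps1-1 replicate 4 only LRX8 was called in paps1-1, and LRX9 was not called there without paps1-1 replicate 3. LRX11 in paps1-1 was called once wild-type replicate 3 was left out (edgeR adjusted p = 1.65e-09). In wild type LRX11 was not called without wild-type replicate 2 or without wild-type replicate 4, and DESeq2's Wald test did not call LRX9 in either genotype.

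The median log2 fold change of all genes was itself -2.53 in paps1-1 and -3.92 in wild type (with DESeq2 size factors, -2.08 in paps1-1 and -3.16 in wild type). Relative to it LRX8 stood at -0.73 in paps1-1 and 0.06 in wild type, LRX10 at -0.81 in paps1-1 and 0.19 in wild type, LRX9 at 0.12 in paps1-1 and 1.14 in wild type, and LRX11 at 0.58 in paps1-1 and 1.08 in wild type. The wild-type positions depended on the setting. With DESeq2's Wald test the wild-type median was -1.75, and LRX8 (-2.75) and LRX10 (-2.60) lay below it. With no filter on low counts it was -2.44, and LRX8 (-3.50) and LRX10 (-3.37) again lay below it.

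Over 14180 genes the log2 fold change fell with exon length, with a Spearman correlation of -0.355 in paps1-1 and -0.312 in wild type, a description across genes, which are not independent replicates. The annotated exons of the 4 members, 2709 to 3414 bases, are given above, and the part of transcript length in the LRX difference was not tested.

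The 4 genes did not shift by the same amount between primers. Relative to LRX8, LRX11 was higher in the oligo(dT) library than in the hexamer library in 8 of 8 RNA samples, by 1.16 ± 0.43 on the log2 scale (SD, n = 8; exact two-sided sign-flip permutation test, p = 0.00781, adjusted p = 0.0234 over 3 ratios). LRX9 was higher relative to LRX8 in 6 of 8 samples, by 0.80 ± 1.23, which did not pass the same exact test (p = 0.109, adjusted p = 0.164). In those 6 samples the LRX9 count exceeded the LRX8 count, at 141% to 318% of it, and the exceptions were paps1-1 replicate 3, at 62.7%, and wild-type replicate 3, with 13 counts of LRX9 and 67 of LRX8. The LRX10 ratio shifted by 0.00 ± 0.69, upward in 4 of 8 samples (exact permutation p = 0.992), and single samples shifted by between -1.39 and 0.86. LRX8 and LRX10 had the largest mean drops of the members, -2.74 each on the log2 scale, and any gene that drops less rises relative to LRX8. The share of all genes that rise relative to LRX8 in 8 of 8 samples was not counted. These ratios, too, were examined after the counts had been seen.

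No member passed the test of whether the difference between primers itself differs between genotypes. The interaction term of the 16-library model was 0.60 ± 0.68 for LRX8, 0.37 ± 0.78 for LRX9, 0.38 ± 0.89 for LRX10 and 0.88 ± 0.95 for LRX11 (log2 ± SE, oligo(dT) over hexamers in paps1-1 relative to wild type), each with an edgeR adjusted p of 1.00. The interaction called 0% of 14190 genes by edgeR, with 231 at an unadjusted p under 0.05, while DESeq2's Wald test called 39 genes and none of the 4 members. The median interaction of all genes was 0.97, or 0.66 with DESeq2 size factors, and all 4 members lay below the first of these, at -0.08 to -0.60 relative to it. For LRX11 the 95% interval ran from -0.98 to 2.74.

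Reads on the opposite strand were few. They made up at most 0.594% of the LRX reads of both strands for any member in a paps1-1 hexamer library and at most 1.09% in a wild-type one. In oligo(dT) libraries the highest values were 2.28%, for LRX8 in paps1-1 replicate 2, and 4.06%, for LRX11 in wild-type replicate 4. LRX11 overlaps AT4G03355, annotated on the other strand, over 1186 bases, and the remaining members overlap no annotated gene. AT4G03355 has no row in the count files used here, so reads from it within the overlap cannot be told apart from other opposite-strand reads of LRX11.

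The other 7 LRX genes were far lower. In hexamer libraries LRX3 (AT4G13340), a vegetative member, averaged 120 ± 86.1 TPM in paps1-1 and 93.7 ± 51.8 TPM in wild type (SD, n = 4 each). AT3G24480, annotated as a leucine-rich repeat family protein, averaged 115 ± 82.0 TPM in paps1-1 and 69.2 ± 85.6 TPM in wild type. AT4G18670, with the same annotation, averaged 64.4 ± 39.8 TPM in paps1-1 and 43.3 ± 23.9 TPM in wild type. LRX2 (AT1G62440), which acts with LRX1 in root hairs, had 3.45 ± 5.28 TPM in paps1-1 and 13.8 ± 12.5 TPM in wild type. LRX1 (AT1G12040), the root hair founder of the family, had counts in 1 of 4 paps1-1 and 1 of 4 wild-type hexamer libraries.

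The lowest library of LRX11, at 724 TPM, lay above the highest of any other LRX gene, 219 TPM for LRX3. In the genotype comparison 4 of these 7 genes had enough hexamer counts for the test and 0 were called, with log2 fold changes of -2.08 ± 1.61 (LRX2), 0.11 ± 0.63 (LRX3), 0.42 ± 0.88 (AT3G24480) and 0.34 ± 0.65 (AT4G18670) and a median of 0.23. With oligo(dT) only LRX3 could be tested, at 0.95 ± 2.40. Between primers 0 of the 4 tested were called in either genotype, with medians of -4.99 in paps1-1 and -7.17 in wild type. The interaction called 0 of 4, with a median of 2.35.

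Among the ligands of the pathway, RALFL19 (AT2G33775), which encodes RALF19, averaged 1719 ± 833 TPM in paps1-1 hexamer libraries and 2432 ± 706 TPM in wild type (SD, n = 4 each). RALFL4 (AT1G28270), which encodes RALF4, averaged 218 ± 120 TPM in paps1-1 and 373 ± 168 TPM in wild type. Of the receptor kinases, AT4G39110, annotated as a malectin/receptor-like protein kinase, averaged 1327 ± 599 TPM in paps1-1 and 1752 ± 442 TPM in wild type. ANX2 (AT5G28680), a receptor kinase that maintains pollen tube integrity, averaged 657 ± 308 TPM in paps1-1 and 960 ± 265 TPM in wild type, and its homologue ANX1 (AT3G04690) averaged 267 ± 141 TPM in paps1-1 and 304 ± 145 TPM in wild type. Average TPM was thus higher for LRX8, LRX9 and LRX10 than for any of the 13 pathway genes in either genotype.

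**Figure D4:**
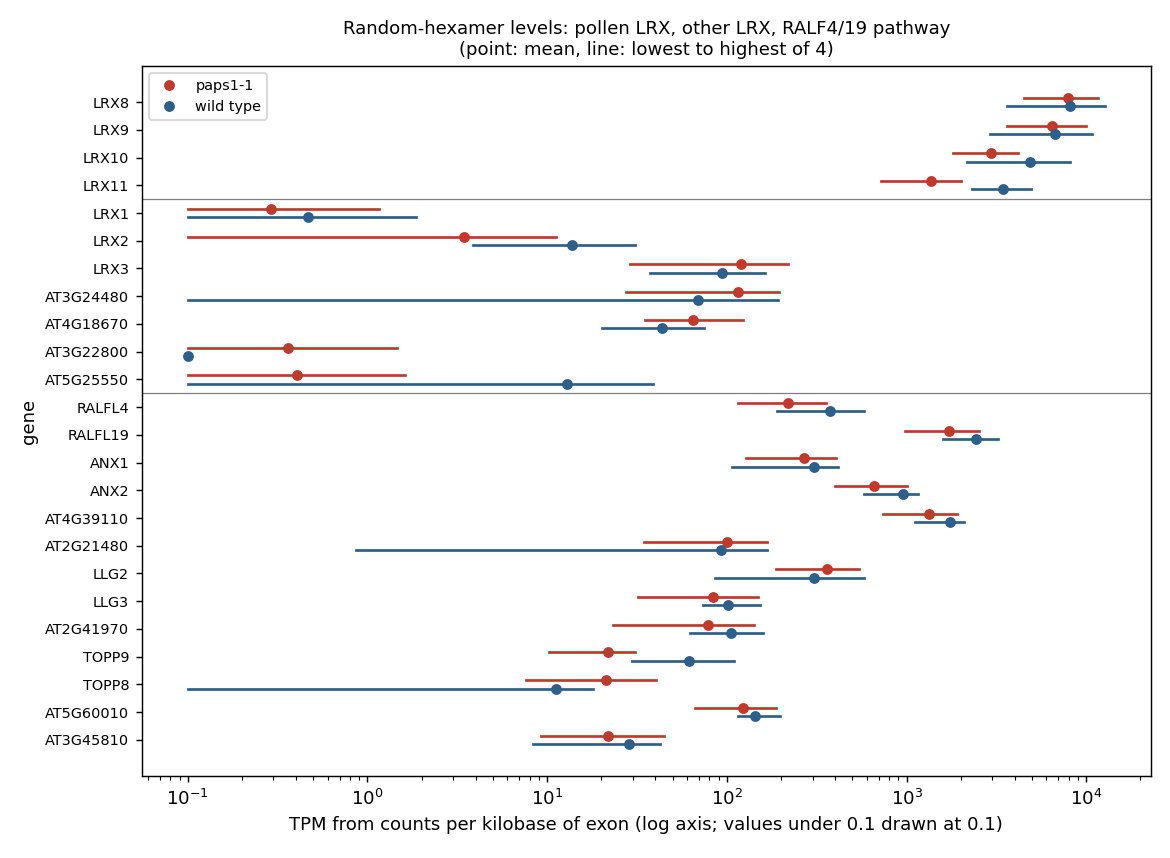
TPM in hexamer libraries (log axis, values under 0.1 drawn at 0.1) of the 4 pollen LRX genes (top), the 7 other LRX genes (middle) and 13 genes of the RALF4 and RALF19 pathway (bottom), as the mean (point) and the lowest to highest of 4 libraries (line), red paps1-1 and blue wild type. LRX11 is the one pollen LRX gene whose lines do not overlap, at 724 to 2020 TPM in paps1-1 and 2299 to 4940 TPM in wild type.

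Between genotypes with hexamers, 4322 of all 12595 genes had a negative log2 fold change and 8273 a positive one. Of the 8 pollen markers, 6 were negative and 2 positive, with a median of -0.37 and 0 called. All 13 pathway genes could be tested with hexamers and 0 were called between genotypes, with 10 negative and 3 positive log2 fold changes and a median of -0.29. The smallest p belonged to TOPP9 (AT3G05580), a protein phosphatase catalytic subunit, at -1.54 ± 0.75 (edgeR adjusted p = 1.00), followed by RALFL4 at -0.81 ± 0.71, ANX2 at -0.53 ± 0.74 and AT2G41970, a protein kinase superfamily member, at -0.48 ± 0.73. With oligo(dT) 11 were tested and 0 called, with a median of 0.12, the smallest p being that of AT4G39110 at 0.67 ± 1.19. Between primers AT4G39110 was the single pathway gene called, lower with oligo(dT) in wild type at -3.89 ± 0.84 (edgeR adjusted p = 0.00193), and it stood at -2.85 ± 0.79 in paps1-1 (adjusted p = 0.0929). The list medians were -1.86 in paps1-1 and -2.50 in wild type. RALFL19 stood at 0.87 ± 0.75 in paps1-1 and 0.00 ± 0.72 in wild type, while LRX8 stood at -3.26 in paps1-1 and -3.86 in wild type. The interaction called 0 of 13, with a median of 1.00.

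Of 12 genes for hydroxylation and glycosylation of extensins, 7 could be tested with hexamers between genotypes and 0 were called, with 6 positive log2 fold changes, 1 negative and a median of 0.98. Of all 12595 genes in that comparison, 8273 were positive and 4322 negative. AT3G57630, an exostosin family protein, stood at 2.15 ± 1.39, and XEG113 (AT2G35610), an arabinosyltransferase of extensins, at 1.27 ± 1.02, with 40.5 ± 20.5 TPM in paps1-1 and 13.1 ± 12.3 TPM in wild type (SD, n = 4 each). Among wild-type hexamer libraries, 2 of 4 held counts of AT3G57630 and 3 of 4 held counts of XEG113. P4H5 (AT2G17720), a prolyl 4-hydroxylase, averaged 43.2 ± 11.8 TPM in paps1-1 and 22.0 ± 19.7 TPM in wild type, and P4H13 (AT2G23096) had no count in any hexamer library. With oligo(dT) 2 were tested and 0 called, with a median of 1.14. Between primers 0 of 8 were called in either genotype, with medians of -3.53 in paps1-1 and -5.16 in wild type, and the interaction called 0 of 8, with a median of 1.26.

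The genes whose log2 CPM ran most like the 4 members over the 8 hexamer libraries were MYB120 (AT5G55020), a pollen transcription factor, with a mean Pearson correlation of 0.960, AT1G29140 with 0.953, BZIP34 (AT2G42380), a transcription factor, with 0.952, AGP6 (AT5G14380), a pollen arabinogalactan protein, with 0.951, and AT1G79910 with 0.951, out of 3373 genes of mean log2 CPM at least 5. Each of the 5 followed LRX10 (0.968 to 0.992) more closely than LRX11 (0.855 to 0.938). The 8 libraries share the differences in pollen content given above, so these correlations are a description.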

How the data were processed

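Each library has 1 table of read counts, deposited by the authors. STAR and the TAIR10 build are named in the submitters' processing notes, while the STAR version, and whether reads were trimmed or deduplicated, is not given in the sources used here. There are 3 columns of counts in each: unstranded, on the strand of the gene (used here, column 3) and on the opposite strand. Library sizes and tests excluded the 4 rows that name no gene. Lengths and sequences came from RefSeq TAIR10.1, matched by locus, with a length for 32827 of 33323 genes; no coordinates were taken from it, as its build name differs from that of the counts.

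Counts were tested with edgeR 4.0.16 in R 4.3.3 (quasi-likelihood F test, TMM, filterByExpr with a minimum count of 10 and a minimum total of 15, Benjamini-Hochberg, 0.05). Genotypes were compared in the 8 libraries of each primer, and primers and the interaction in 1 fit of 16 libraries with RNA sample as a block. SEs are |log2 fold change| / sqrt(F). Exact permutation tests of ratios used a prior count of 0.5 (Python 3, scipy). The correlations used log2 CPM after TMM scaling, with a prior count of 2, while the CPM values printed are not TMM-scaled. DESeq2 1.42.0 was an alternative. The fits were also run on simulated data with larger changes than the genotype differences of the members. Those runs do not show whether differences of the members' size would be called. No 2 libraries of a group agreed within sampling noise (chi-square per degree of freedom at least 19.5 over 24 pairs), so each counted once.

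The members and gene lists were chosen with earlier results of these data known. The text names the 4 members in each library, of each list up to 4 genes of smallest p per comparison, further genes of the lists for their known roles, chosen after their values were seen, and the 5 genes of highest mean correlation. The ratios to LRX8 and the within-sample ratios were examined after the counts had been seen.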

Additional observations from a re-analysis of the deposited data

Results flagged for a closer look

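In wild-type hexamer replicate 3, LRX11 held 21.4% of the counts of the 4 members, while the other 3 wild-type hexamer libraries lay between 13.7% and 14.6%, and its gap to the nearest of them was 0.872 of the group's range. In the same library LRX9 held 25.3%, below the other 3 at 27.9% to 28.2%, with a gap of 0.873 of the range. Both passed Dixon's 95% critical value for 4 samples. The 2 flags are shares of the same sum, so they are not independent observations. The LRX9 count in that library was 70.1% of the LRX8 count, within the 66.4% to 73.4% of the other wild-type hexamer libraries. Levels and shares were examined in 32 groups of 4, of which 2 were flagged, and chance flags about 1 in 20 such groups. That library had 628358 gene counts, and 97.3% of its reads fell in rows that name no gene.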

How the results depend on the processing

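The order of the 4 levels per kilobase kept its direction in all 12 alternatives, with 5 or 6 of 6 pairs called. LRX10 and LRX11 were lower relative to LRX8 in paps1-1 hexamer libraries in all 11 alternatives, at -0.71 to -0.56 for LRX10 and -1.47 to -1.20 for LRX11. For LRX11 with oligo(dT) the range was -1.21 to -0.91. The genotypes did not overlap in any of these. Most alternatives only left out libraries, which cannot make separate groups overlap. That outcome was open only with a prior count of 2 and with counts without regard to strand. For LRX9 to LRX8 with oligo(dT), at 0.06, leaving out 1 replicate gave -0.79 to 0.54.

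With primers compared in paps1-1, 3 members were called, against 0 without paps1-1 replicates 2 and 3, 0 with no replicate block, and 1 to 4 leaving out 1 replicate; in wild type 4 were called, against 2 without paps1-1 replicates 2 and 3 and 2 with no replicate block. No member was called between genotypes or in the interaction under any alternative run, but uncalled signs turned. Between genotypes with hexamers, LRX8 and LRX9 turned to 0.0466 and 0.0179 with DESeq2 size factors and with DESeq2's Wald test and to 0.64 and 0.62 without paps1-1 replicates 2 and 3, and ran over -0.48 to 0.41 and -0.58 to 0.39 leaving out 1 replicate. With oligo(dT), the same removals gave -0.17 to 0.83 for LRX8, -0.78 to 0.36 for LRX9 and -1.11 to 0.0689 for LRX10, and without paps1-1 replicates 2 and 3 LRX9 stood at 0.59, LRX10 at 0.19 and LRX11 at 0.30. In the interaction, LRX10 stood at -0.18 with DESeq2 size factors and with the Wald test, at -0.26 without paps1-1 replicates 2 and 3, and at -0.0656 to 0.98 leaving out 1 replicate; LRX9 stood at -0.54 without the shallowest oligo(dT) library and at -0.55 to 0.87 leaving out 1 replicate. The cause was not tested.

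The labels do not say that replicate numbers pair the genotypes, and the values do not settle it. Deviations of same-numbered hexamer samples correlated at 0.30, 0.25, -0.03 and -0.07. Those of oligo(dT) samples correlated at 0.22, 0.05, 0.05 and -0.07. With either primer, paps1-1 replicates 1 and 2 matched the wild-type replicate of the same number best, and replicates 3 and 4 did not. The replicate block turned LRX9 to 0.44 with oligo(dT) and moved the genes called between genotypes to 15 with hexamers, against 9 without it, and to 4 with oligo(dT), against 1. Over all alternatives, the genes called were 4 to 47 (9 as reported) and 0 to 54 (1) between genotypes with hexamers and oligo(dT), 2 to 982 (40) and 32 to 1821 (163) between primers in paps1-1 and wild type, and 0 to 39 (0) for the interaction.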
